A study of Mus musculus with 13 samples.

Results

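Genes of the sebaceous gland, of fatty acid synthesis and of sterol synthesis were followed in chemically induced skin tumours of G9a WT and G9a cKO (conditional knockout) mice. The set held 45 genes, chosen by name with earlier results of these data known. Of these, 37 had a probe set (a group of array probes that reads 1 transcript) whose only gene symbol was theirs, out of 17097 genes read in this way. Awat1, Awat2, Dgat2l6, Soat1, Acsl1, Scd2, Scd3 and Srebf1 had none and were not analysed here. Where a gene had several probe sets, the one with the highest mean over all arrays was read.

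Total RNA from 13 tumours labelled as squamous cell carcinoma was hybridised to arrays: 6 tumours were G9a WT and 7 G9a cKO. G9a, the product of Ehmt2, methylates lysine 9 of histone H3. In both groups the carcinogen DMBA (0.25 mg/ml) and the tumour promoter TPA (0.02 mg/ml), 200 µl each in acetone, were put on the shaved back skin of mice aged 8 weeks once weekly for 6 weeks, and TPA was continued for at most 20 weeks. The labels do not give the Cre driver, the strain, the sex or how many mice the tumours were taken from. The p-values therefore measure the spread among these 13 samples.

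Sebaceous glands are lipid-filling glands attached to hair follicles, and their cells make triglycerides, wax esters, cholesterol esters and squalene before they burst. Keratinocytes of the epidermis make fatty acids and cholesterol as well, for their membranes and for the lipid barrier of the skin. Most enzymes of both routes are transcribed under SREBP factors, which are held in the endoplasmic reticulum by INSIG proteins when sterols are plentiful and are cut free by proteases when sterols are scarce.

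The deposited values are on a log2 scale, with array medians between 5.09 and 5.14. Values were spread less widely on cKO arrays. The SD over all probe sets of an array lay between 1.91 and 1.94 for WT and between 1.83 and 1.88 for cKO. The part of this narrower range in the differences of bright genes was not tested. The dimmer of the Ehmt2 probe sets by overall mean fell, reading 8.33 ± 0.19 on WT (SD, n = 6) against 6.01 ± 0.10 on cKO arrays (SD, n = 7; limma adjusted p = 9.71e-10, and 3.26e-05 with the pair term described next), and the other read 7.29 ± 0.19 and 7.42 ± 0.044 (adjusted p = 0.166). In 6 pairs of arrays that stand next to each other in the deposit, the deviations from the group mean mirrored each other over all genes (r between -0.956 and -0.88), so arrays are not independent. Only 4.86% of the WT and 5.66% of the cKO within-group sum of squares lay between pair means, which hold 40% and 50% of the degrees of freedom. The SDs within groups and the fit without the pair term thus carry little spread between pairs, which may make the p-values too small. Opposite deviations within a pair are a property of these values, and how they arose was not tested. Every test was therefore run without and with a term for each pair, and the words rose and fell are kept for genes with an adjusted p under 0.05 in each of these fits. Of 23 nonspecific control probe sets, which match no transcript, the upper quartile of level was 4.29, taken here as the background level, and their differences between the groups ran from -0.31 to 0.082. The 18 hybridisation controls were all higher on cKO arrays, by 0.057 to 0.49. Krt5 and Krt14, markers of squamous epithelium, were high in both groups, at 12.62 and 12.35 in WT and 12.75 and 12.23 in cKO tumours. Of 4 sex-linked genes, Eif2s3y was lower in cKO tumours in both fits (8.31 to 8.65 in WT and 5.31 to 7.54 in cKO) and Xist without the pair term only (4.93 to 7.36 and 4.49 to 5.88; adjusted p = 0.0312 and 0.0895). Kdm5d and Uty did not pass (-0.28 and 0.052).

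On their brightest probe sets, most of the lipid genes did not pass the test for a difference between the groups. At a limma adjusted p under 0.05, 3 of 37 were higher and 4 lower in cKO tumours, which is 18.9% of the set against 45.8% of all genes (25.7% higher and 20.1% lower). With the pair term as well, 3 were higher (Acacb, Hsd3b6 and Elovl3) and 1 was lower (Sqle), or 10.8% against 24.7% of all genes (14.4% higher and 10.3% lower). The groups did not overlap for 3 of 37 members (8.11%) and for 23% of all genes. Of 28 other probe sets of the members, 10 passed, 3 of them in both fits, and the share over all probe sets was not counted. Of 21 members with over 1 probe set, 10 had probe sets of opposite sign. The median difference was -0.13 over the members and 0.017 over all genes, and after quantile normalization of the deposited values it was -0.0096 and 0.037. The count of lower members was the less steady of the counts, 8 without WT replicate 4 and 7 without cKO replicate 3. Quantile normalization gave 3 higher and 2 lower members, and centring each array on its median gave 3 and 9. In a tumour extract, fewer cells of a type and less RNA per cell cannot be told apart.

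Markers of cells that also hold these transcripts were read beside the set. Without the pair term, 45.8% of all genes were called, against 57.1% of the keratinocyte list and 11.1% of the other sebaceous genes. The adipocyte list had 87.5%, the macrophage list 41.7% and the fibroblast list 85.7%. Of 7 keratinocyte markers, 1 was higher (Krt5, by 0.13) and 3 were lower, of which Cdh1 fell by 0.56 and Krt6a by 0.37 in both fits. The mean of this list lay between 10.75 and 11.14 on WT and between 10.47 and 11.06 on cKO arrays. Of 9 other genes of the sebaceous lineage, none was higher and 1 (Lrig1) was lower, without the pair term only (-0.49, adjusted p = 0.0291 and 0.127). The mean of this list lay between 7.97 and 8.33 on WT and between 7.52 and 8.45 on cKO arrays. Of 8 adipocyte markers, 4 were higher and 3 lower. Adipoq and Lep lay below background on all 13 arrays, whereas 5 of the 8 had a group mean above it. Fabp4 read 9.04 ± 1.70 in WT and 8.48 ± 1.01 in cKO tumours, and Lipe 6.66 and 6.38. The mean of the list lay between 4.88 and 5.42 on WT and between 4.87 and 5.21 on cKO arrays. Of 12 macrophage markers, 4 were higher and 1 lower, a share near that of all genes. Their mean was 4.93 to 5.13 on WT and 5.14 to 5.55 on cKO arrays, which separates the groups only just. Some of them, such as Adgre1 and C1qa, lay below background on all 6 WT arrays. Of 7 fibroblast markers, 6 were higher and none lower, with a list mean of 4.48 to 5.50 on WT and 6.16 to 6.79 on cKO arrays. The part of keratinocyte, adipocyte, macrophage and fibroblast RNA in the differences of the lipid genes was not tested. With Xist minus the mean of the Y-linked genes as a covariate, 3 members were called higher and 3 lower, Dgat1 being the call lost (adjusted p = 0.0608).

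The lipid genes did not have smaller differences than other genes, but they varied more between tumours of the same group. The median size of the difference, regardless of sign, was 0.21 for the members and 0.16 for all genes. The median SD between tumours was 0.25 in WT and 0.26 in cKO for the members, against 0.12 and 0.099 for all genes, and the median standard error of the difference was 0.13 against 0.065. The members were also brighter. Their mean was 7.55 to 7.77 on WT and 7.39 to 7.72 on cKO arrays, against 6.13 to 6.17 and 6.12 to 6.15 over all genes. Genes were not matched for level, and the part of brightness in these medians was not tested. The wide confidence intervals of Mgst1, Fads1, Fads2, Fads3 and Elovl7 stand out in the plot of differences by role.

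**Figure D1:**
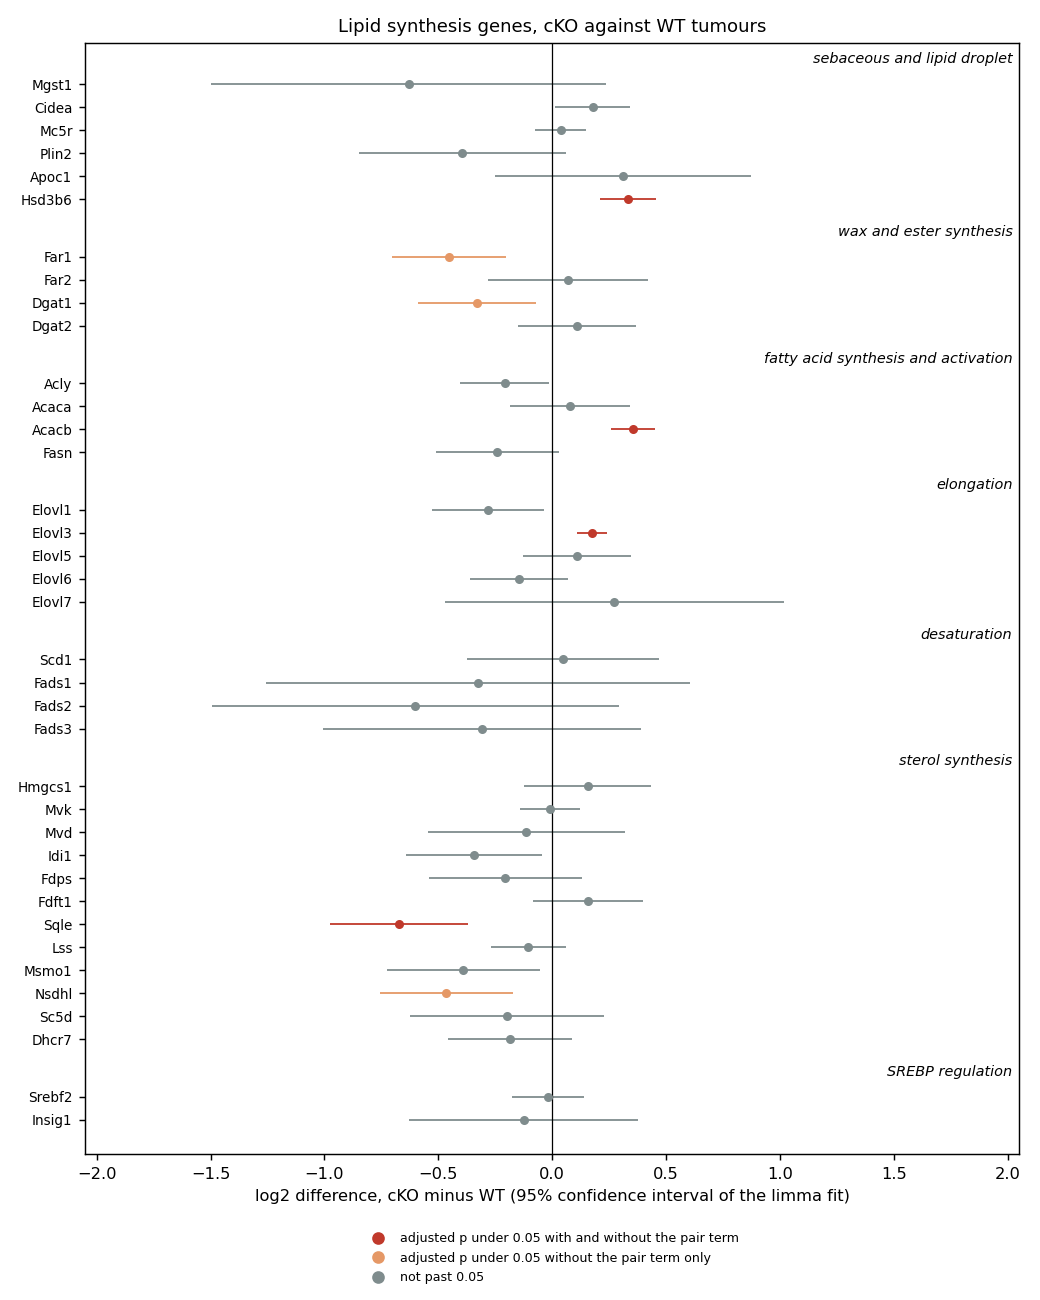
Log2 difference between cKO (n = 7) and WT (n = 6) tumours for the 37 measured genes, grouped by role, with 95% confidence intervals of the limma fit without the pair term. Acacb, Hsd3b6 and Elovl3 lie to the right of 0 and Sqle to the left in both fits (red), Far1, Dgat1 and Nsdhl pass only without the pair term (orange), and 30 genes do not pass (grey).

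Promoter sequences from RefSeq (GRCm38.p6) are shown for Acacb, Hsd3b6, Far1 and Nsdhl, whose differences are given in the next paragraphs, and for Hmgcs1 and Insig1, the members whose SD in cKO tumours exceeded their SD in WT tumours by the largest factor. Each is the 250 bases before the annotated start, 5′ to 3′. The windows were searched on both strands for the CCAAT box that NF-Y binds (CCAAT, or ATTGG on the other strand), the sterol regulatory element that SREBP binds (TCACNCCAC) and the E-box CACGTG, and matches are in capitals. No matches overlap in these windows. Sqle, the member that fell in both fits, had no promoter window and is not shown.
Acacb (chr5:114165268-114165517, plus strand): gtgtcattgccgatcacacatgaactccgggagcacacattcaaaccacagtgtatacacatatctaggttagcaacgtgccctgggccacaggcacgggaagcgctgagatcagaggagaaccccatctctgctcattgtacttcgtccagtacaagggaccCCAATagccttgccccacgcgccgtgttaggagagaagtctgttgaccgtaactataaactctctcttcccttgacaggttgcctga
Hsd3b6 (chr3:98814444-98814693, minus strand): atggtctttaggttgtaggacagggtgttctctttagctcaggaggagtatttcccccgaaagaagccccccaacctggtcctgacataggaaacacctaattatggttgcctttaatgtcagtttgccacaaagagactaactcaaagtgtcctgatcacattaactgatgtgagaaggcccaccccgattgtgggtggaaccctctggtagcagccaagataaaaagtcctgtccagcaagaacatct
Far1 (chr7:113513584-113513833, plus strand): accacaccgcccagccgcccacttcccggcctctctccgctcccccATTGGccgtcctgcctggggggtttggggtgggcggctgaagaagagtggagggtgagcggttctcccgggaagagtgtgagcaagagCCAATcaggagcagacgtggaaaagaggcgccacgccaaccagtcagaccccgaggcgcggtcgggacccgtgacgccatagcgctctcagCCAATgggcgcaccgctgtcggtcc
Nsdhl (chrX:72918271-72918520, plus strand): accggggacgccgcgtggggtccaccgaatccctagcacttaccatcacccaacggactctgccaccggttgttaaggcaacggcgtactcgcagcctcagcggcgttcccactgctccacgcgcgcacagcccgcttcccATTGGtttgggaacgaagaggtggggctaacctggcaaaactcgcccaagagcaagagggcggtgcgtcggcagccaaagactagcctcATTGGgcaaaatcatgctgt
Hmgcs1 (chr13:119690101-119690350, plus strand): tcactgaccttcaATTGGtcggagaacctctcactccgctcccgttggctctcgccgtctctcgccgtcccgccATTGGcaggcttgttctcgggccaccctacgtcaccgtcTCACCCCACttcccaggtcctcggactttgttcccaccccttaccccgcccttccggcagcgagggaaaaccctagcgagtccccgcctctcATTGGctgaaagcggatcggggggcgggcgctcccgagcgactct
Insig1 (chr5:28071162-28071411, plus strand): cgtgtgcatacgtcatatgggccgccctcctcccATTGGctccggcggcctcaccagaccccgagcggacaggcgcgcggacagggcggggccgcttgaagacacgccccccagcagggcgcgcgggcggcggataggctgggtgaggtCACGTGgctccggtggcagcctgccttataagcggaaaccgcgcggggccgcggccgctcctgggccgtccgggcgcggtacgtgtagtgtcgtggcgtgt
The Nsdhl window holds 2 CCAAT boxes, that of Far1 3 and that of Acacb 1, whereas the Hsd3b6 window has no match to any of these motifs. Hmgcs1 has 3 CCAAT boxes and 1 sterol regulatory element, and Insig1 has 1 CCAAT box and 1 E-box. Of the 12 sterol synthesis genes, 9 were in the table, and all 9 had a CCAAT box in at least 1 window, as did 66.7% of the 33 members found and 37.5% of all 27025 genes in the table. A sterol regulatory element of these letters was found in 2 members (Hmgcs1 and Acsl1), or 6.06%, and in 1.22% of all genes. A match is a run of letters and not a measured binding site.

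Acacb, which encodes the acetyl-CoA carboxylase of the mitochondrial surface, rose in cKO tumours. Its lowest, median and highest log2 values were 5.55, 5.70 and 5.79 in WT and 5.96, 6.02 and 6.14 in cKO tumours. Every cKO tumour lay above every WT tumour. The difference was 0.35 ± 0.045 (SE; limma adjusted p = 4.96e-05, and 0.00589 with the pair term), a 1.28-fold increase. The second Acacb probe set also rose, by 0.26 (adjusted p = 0.000888 and 0.0255). Acaca, the cytosolic carboxylase that supplies malonyl-CoA for synthesis, read 8.37 ± 0.24 and 8.45 ± 0.22 on its brighter probe set, a difference of 0.078 with a 95% interval of -0.18 to 0.34. Its dimmer probe set was 0.38 higher (adjusted p = 0.00643, and 0.0564 with the pair term). Fasn, the fatty acid synthase, had a difference of -0.24 (interval -0.51 to 0.027) and Acly, which makes cytosolic acetyl-CoA from citrate, had -0.21 (adjusted p = 0.0754). The dimmer Acly probe set was lower by -0.38 (adjusted p = 0.00631, and 0.0576 with the pair term). On their brightest probe sets, none of Acly, Acaca and Fasn, the cytosolic enzymes from citrate to palmitate, passed the test.

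Among the genes of sebaceous cells and lipid droplets, Hsd3b6 rose. This gene encodes a 3-beta-hydroxysteroid dehydrogenase, an enzyme of steroid hormone synthesis. It ran from 6.31 through a median of 6.49 to 6.67 in WT and from 6.72 through 6.81 to 6.92 in cKO tumours, so the groups did not overlap. The difference was 0.33 ± 0.057 (SE; adjusted p = 0.00048, and 0.0172 with the pair term), or 1.26-fold, a size within the range of the hybridisation controls, as is that of Acacb. Mgst1, a glutathione transferase of membranes and a sebaceous marker, had the largest difference among members that did not pass, -0.63 with an interval of -1.50 to 0.24. It ran from 6.12 to 7.67 in WT and from 5.14 to 7.10 in cKO tumours, a wide overlap. Plin2, the coat protein of lipid droplets, read 10.06 ± 0.54 and 9.67 ± 0.25 (adjusted p = 0.142), and without WT replicate 4 its difference was -0.53 (adjusted p = 0.0382). Apoc1, an apolipoprotein, read 9.56 ± 0.35 and 9.87 ± 0.60 (adjusted p = 0.35). Cidea, a lipid droplet fusion protein, and Mc5r, the melanocortin receptor of sebaceous cells, lay at the background level, with means of 4.15 and 4.20 in WT and 4.32 and 4.24 in cKO tumours, and neither passed the test.

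None of the measured genes of wax and ester synthesis rose or fell in both fits. Far1, which encodes the peroxisomal reductase that makes fatty alcohols for wax and ether lipids, ran from 7.38 through 7.79 to 8.09 in WT and from 7.07 through 7.30 to 7.46 in cKO tumours, with a slight overlap. Its difference was -0.45 ± 0.12 (SE; adjusted p = 0.00622), and the adjusted p with the pair term was 0.0582. Dgat1, an enzyme of the last step of triglyceride synthesis, had -0.33 ± 0.12 (adjusted p = 0.0393, and 0.157 with the pair term). Its dimmer probe set had -0.43 (adjusted p = 0.0414 and 0.156). Dgat2, which catalyses the same step, had 0.11 (interval -0.15 to 0.37), and its dimmer probe set had 0.33 (adjusted p = 0.0176, and 0.0921 with the pair term). Far2 had 0.068 (interval -0.28 to 0.42). The Dgat1 call was lost with 9 of the 13 arrays left out in turn, with adjusted p between 0.0501 and 0.0882.

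Of the elongases, which lengthen fatty acids by a pair of carbons at a time, only the dim Elovl3 passed. Elovl3, an elongase of sebaceous glands and brown fat, lay below the background level on all 13 arrays, between 3.74 and 3.80 in WT and between 3.86 and 4.03 in cKO tumours. Its adjusted p was 0.000587 (0.0279 with the pair term), its difference of 0.17 is smaller than the largest of the nonspecific controls in size, and no fold is given. Elovl1, which makes very long chains for ceramides, read 10.58 ± 0.25 and 10.30 ± 0.19 (difference -0.28, adjusted p = 0.0588). A second, dimmer Elovl1 probe set fell by 0.53, with no overlap between the groups (adjusted p = 0.000498, and 0.0158 with the pair term). Elovl5 and Elovl6 differed by 0.11 and -0.15, with intervals of -0.13 to 0.35 and -0.36 to 0.068. The dimmer Elovl6 probe sets were of the other sign, 0.058 and 0.26, the latter passing without the pair term only (adjusted p = 0.0337 and 0.128). Elovl7 ran from 7.10 to 9.21 in WT and from 7.71 to 9.25 in cKO tumours, and its interval of -0.47 to 1.02 allows changes in either direction.

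The desaturases, which put double bonds into fatty acids, did not pass the test on their brightest probe sets, and their tumour-to-tumour spread was among the widest of the set. Scd1, which makes oleate and palmitoleate and is needed for normal sebaceous glands, averaged 8.68 ± 0.37 over the WT and 8.72 ± 0.39 over the cKO arrays, a difference of 0.048 with an interval of -0.38 to 0.47. Fads2, the first desaturase of polyunsaturated fatty acid synthesis, ran from 6.88 through 7.35 to 8.69 in WT and from 6.09 through 6.74 to 8.12 in cKO tumours. The difference of -0.60 had an interval of -1.49 to 0.29. Fads1 and Fads3 differed by -0.33 and -0.31 (adjusted p = 0.562 and 0.457). A dimmer Fads3 probe set was lower by -0.94 (adjusted p = 0.0335, and 0.134 with the pair term). The remaining desaturase probe sets did not pass: 0.17 for Fads3, 0.16 for Fads1, -0.0076 and 0.029 for Fads2, and 0.34 for Scd1.

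In sterol synthesis, Sqle fell and no other member passed both fits. Sqle encodes squalene epoxidase, the oxygen-requiring step that turns squalene, itself a major lipid of human sebum, toward sterols. Its values were 8.72, 9.10 and 9.47 (lowest, median and highest) in WT and 7.93, 8.44 and 8.73 in cKO tumours. The highest cKO value, that of replicate 3, only just overlapped the lowest WT value. The difference was -0.67 ± 0.14 (SE; adjusted p = 0.00174, and 0.0247 with the pair term), or 1.59-fold lower, the one member called at 1.5-fold or more. After quantile normalization it was -0.51 (adjusted p = 0.00863). With the pair term as well, the adjusted p was 0.0621.

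On their brightest probe sets, most steps before and after Sqle had smaller negative differences, none passing both fits. In all, 10 of 12 sterol genes had negative differences, against 8023 of 17097 genes, which were not matched for level. The median over the sterol genes was -0.19 and became -0.056 after quantile normalization. Nsdhl, which takes part in removing methyl groups from the sterol ring, read 8.16 ± 0.23 and 7.69 ± 0.28, a difference of -0.46 ± 0.13 (SE; adjusted p = 0.0131, and 0.0776 with the pair term). Msmo1, which oxidises those methyl groups, had -0.39 (adjusted p = 0.0547), but its dimmer probe set had 0.42 (adjusted p = 0.0617). Idi1, the isomerase of isopentenyl diphosphate, had -0.34 (adjusted p = 0.058), and its other probe set had -0.45 (adjusted p = 0.0217, and 0.091 with the pair term). Fdps, Sc5d, Dhcr7, Mvd, Lss and Mvk, which range from the mevalonate steps to the last reductions, differed by -0.21, -0.20, -0.19, -0.11, -0.11 and -0.0094, and none passed. Their dimmer probe sets did not pass either and went both ways: 0.24 and -0.32 for Sc5d, 0.077 for Mvd and -0.15 for Mvk. Fdft1, the squalene synthase just before Sqle, and Hmgcs1, the entry enzyme, differed by 0.16 and 0.15 (intervals -0.085 to 0.40 and -0.12 to 0.43).

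The SREBP system itself gave mixed readings. Srebf2, the SREBP gene that mainly drives sterol synthesis, had 7.46 ± 0.17 and 7.44 ± 0.097 on its brighter probe set, a difference of -0.0195 with an interval of -0.18 to 0.14. Its dimmer probe set fell by 0.30, from 7.06 to 6.76, without overlap (adjusted p = 0.000714, and 0.0116 with the pair term), so the pair of readings of this gene disagree. Insig1, which holds SREBP back and is itself a target of SREBP, had nearly equal means, 9.61 and 9.49, and an unequal spread. It lay between 9.45 and 9.75 in WT tumours (SD 0.10) and between 8.48 and 10.35 in cKO tumours (SD 0.60). The lowest and highest of all 13 values were cKO replicates 8 and 9, which form 1 mirrored pair. On the other cKO arrays it ran from 9.15 to 9.93. Hmgcs1 showed a like pattern near the background level, between 4.52 and 4.62 in WT (SD 0.037) and between 4.34 and 5.40 in cKO tumours (SD 0.33). Its extremes were again cKO replicates 8 and 9, and the other cKO arrays ran from 4.52 to 4.70. The wide cKO spread of both genes thus rests largely on 1 pair. These genes were singled out after their values were seen, and the difference in spread was not tested. Over the whole set, 18 of 37 members (48.6%) had the larger SD in cKO tumours, against 34.1% of all genes.

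**Figure D2:**
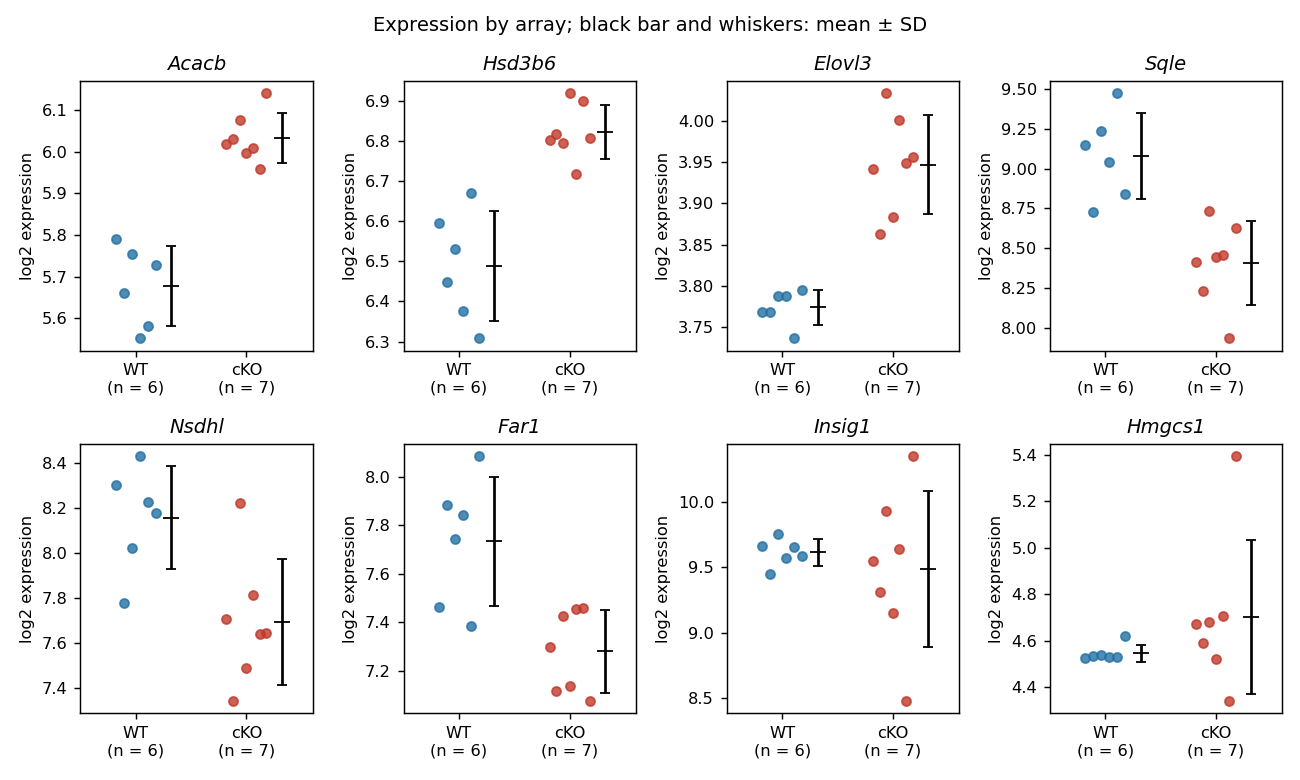
Log2 expression of 8 genes on each of the 13 arrays, with points for single tumours and black bars for the mean ± SD of each group; the vertical axes differ and do not start at 0. The groups separate for Acacb, Hsd3b6 and Elovl3, touch for Sqle, and overlap for Nsdhl, Far1, Insig1 and Hmgcs1. Insig1 and Hmgcs1 are spread wide in cKO tumours, with replicates 8 and 9 as the extremes.

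In some pairs of tumours of 1 group, most sterol genes were high or low together. In cKO tumours, 11 of 12 sterol genes were higher in replicate 3 than in replicate 2, by a median of 0.51, where 49.8% of all genes were higher. Likewise 10 of 12 were higher in cKO replicate 9 than in replicate 8, by a median of 0.54, where 51.2% of all genes were higher. In the pair of cKO replicates 5 and 6 the count was 7 of 12 with a median of 0.012. Among WT tumours, 4 of 12 were higher in replicate 4 than in replicate 2 (42.2% of all genes), 9 of 12 in replicate 7 than in replicate 6 (54.4%) and 7 of 12 in replicate 9 than in replicate 8 (52.5%). Insig1 ran with most sterol genes in the cKO pairs, from 8.48 in replicate 8 to 10.35 in replicate 9 and from 9.31 in replicate 2 to 9.93 in replicate 3. It ran against them in WT replicates 6 and 7, at 9.75 and 9.57. Paired arrays mirror each other, so each pair counts as 1 contrast.

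In the cKO pairs the Fads genes moved together, and not always with the sterol genes. In cKO replicate 3 all 3 were higher than in replicate 2, with Fads2 at 8.12 against 6.09, and in replicate 6 all 3 were higher than in replicate 5, with Fads2 at 7.84 against 6.24. In cKO replicate 9, where most sterol genes were higher than in replicate 8, all 3 were lower, with Fads2 at 6.11 against 7.68. Among WT tumours all 3 were higher in replicate 7 than in replicate 6, but they split in the other pairs: from replicate 2 to 4 Fads1 differed by 1.42, Fads2 by -0.38 and Fads3 by -0.67, and from replicate 8 to 9 the differences were -1.57, -0.90 and 1.22. Mgst1 ran against Fads2 in each of the cKO pairs, at 7.03 and 5.14 in replicates 2 and 3, 7.10 and 5.27 in replicates 5 and 6, and 5.51 and 7.09 in replicates 8 and 9. Apoc1 moved the same way as Mgst1 in these 3 pairs, for example from 9.12 in replicate 8 to 10.57 in replicate 9. Among WT tumours, Mgst1 ran against Fads2 in 2 of 3 pairs, and in WT replicates 8 and 9 both were lower in replicate 9. These patterns were noticed in the values and carry no test.

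**Figure D3:**
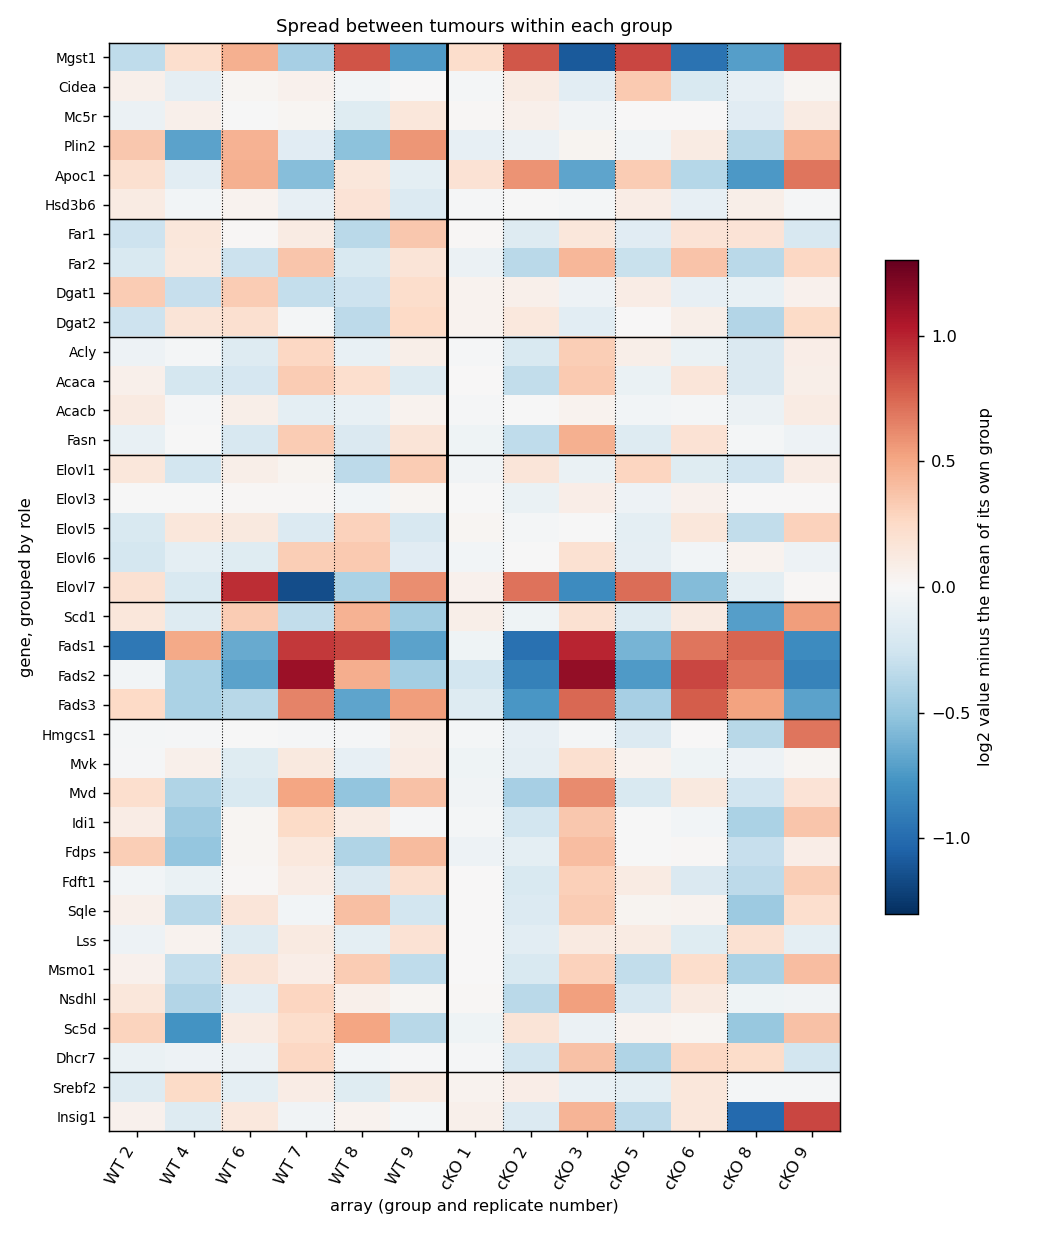
Deviation of each gene from the mean of its own group, in log2 units (red above, blue below), for 6 WT and 7 cKO arrays; dotted lines part the pairs of neighbouring arrays, the thick line the groups and horizontal lines the roles. Paired arrays mostly have opposite colours, cKO replicate 1 stays near 0, and Mgst1, Elovl7 and the 3 Fads genes have deep colours, with Mgst1 opposite to Fads2 on 6 paired cKO arrays.

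Related lipid genes outside the set were read in 5 lists. Of 46 measured genes, 10 were higher and 9 lower (41.3%, close to the 45.8% of all genes), and 10 were called in both fits, 5 in each direction. Among genes of SREBP processing and cholesterol uptake, 2 of 10 were higher and 3 lower. Mbtps2, the site-2 protease that frees SREBP from the membrane, ran from 4.91 through 5.08 to 5.39 in WT tumours and lay below the background level on all 7 cKO arrays, between 3.99 and 4.23. It was at least 1.79-fold lower in cKO tumours (adjusted p = 1.49e-06, and 0.000954 with the pair term), where the bound sets each cKO array at 4.29, and its other probe set fell by 0.61. Scap, which carries SREBP to the protease, and Mbtps1, which cuts first, did not pass (-0.12 and -0.14, adjusted p = 0.235 and 0.279); they are named for their place beside Mbtps2. The dimmer Mbtps1 probe sets ran the other way: one rose by 0.82 without overlap (adjusted p = 0.000258, and 0.0115 with the pair term), and the other had 0.29 (0.0386 and 0.155), so the direction for Mbtps1 depends on the probe set. Scarb1, a receptor that takes up cholesterol from HDL, fell by 0.34 (adjusted p = 0.00267, and 0.0304 with the pair term). The cholesterol carriers Npc2 and Stard4, with differences of -0.37 and 0.32, passed only without the pair term on their brightest probe sets (adjusted p = 0.0179 and 0.021, and 0.104 and 0.106 with it). Dimmer probe sets passed both fits in the same direction: Npc2 fell by 0.97 on one (adjusted p = 5.17e-05 and 0.00546), and Stard4 rose by 0.68 and 0.51 on its other pair (adjusted p with the pair term, 0.019 and 0.0426).

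Acyl-CoA and triglyceride genes went both ways. Of 17 other genes of fatty acid and triglyceride synthesis, 5 were higher and 3 lower, with a median difference of 0.0053. Acsl3 and Acsl4, which activate long-chain fatty acids to acyl-CoA, fell by 0.81 and 1.20 on the log2 scale (adjusted p = 0.000691 and 0.0012, and 0.0157 and 0.0236 with the pair term), with no overlap between the groups for either. The other Acsl3 probe sets fell by 0.48 (to below background on all cKO arrays) and 0.81, whereas those of Acsl4 had -0.57 and -0.48 and did not pass (adjusted p = 0.0722 and 0.101). Acss2, which makes acetyl-CoA from acetate, rose from 4.83 ± 0.12 to 5.51 ± 0.078. Its second probe set rose by 0.44, a size within the range of the hybridisation controls. Gpam, the first enzyme of triglyceride synthesis, rose by 0.60 (adjusted p = 5.83e-05, and 0.00609 with the pair term), while its dimmer probe set had -0.040 (adjusted p = 0.55).

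Of 6 other sterol enzymes, Lbr, the sterol reductase that also tethers heterochromatin to the nuclear envelope, was the one called on its brightest probe set: it fell by 0.44, from 8.73 ± 0.18 to 8.29 ± 0.043 (adjusted p = 0.000222, and 0.0105 with the pair term). Ggps1, which makes geranylgeranyl diphosphate, had 0.040 on its brightest probe set, while its dimmer ones went opposite ways in both fits, by 0.50 and -0.39 (adjusted p with the pair term, 0.00187 and 0.0146). Of 4 genes of LXR and sterol efflux, Nr1h3, which encodes the oxysterol receptor LXR alpha, rose by 0.27 (adjusted p = 0.000223, and 0.0132 with the pair term). The size of this rise is within the range of the hybridisation controls. Abcg1, a cholesterol exporter and LXR target of the same list, had 0.11 on its brighter probe set (adjusted p = 0.167 over all probe sets). Its other probe set averaged 5.69 ± 0.38 in cKO tumours and was below background on all 6 WT arrays, at least 2.64-fold higher in cKO tumours without overlap (adjusted p = 1.26e-06, and 0.000764 with the pair term). Over the related genes, 17 of 35 other probe sets passed, 12 of them in both fits. Of all genes, 45.8% passed and 24.7% did so in both fits, and the share over all probe sets was not counted. Mbtps1, Ggps1 and Abcg1 are named for their other probe sets after the values were seen. Of 9 genes of fatty acid oxidation and lipolysis, 2 were higher and 2 lower. Cpt2, Hadhb and Acadl, enzymes of mitochondrial oxidation, had -0.44, -0.23 and 0.28 and passed only without the pair term (adjusted p with it, 0.0908, 0.148 and 0.163). Ppara, the receptor that drives fatty acid oxidation, was below background on each of the 6 WT arrays, and its cKO level was higher by at least 1.31-fold (adjusted p = 1.43e-08, and 0.000267 with the pair term). Its other probe sets had 0.068 and 0.093, of which only the second passed, and only without the pair term (adjusted p = 0.0158, and 0.14 with it).

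**Figure D4:**
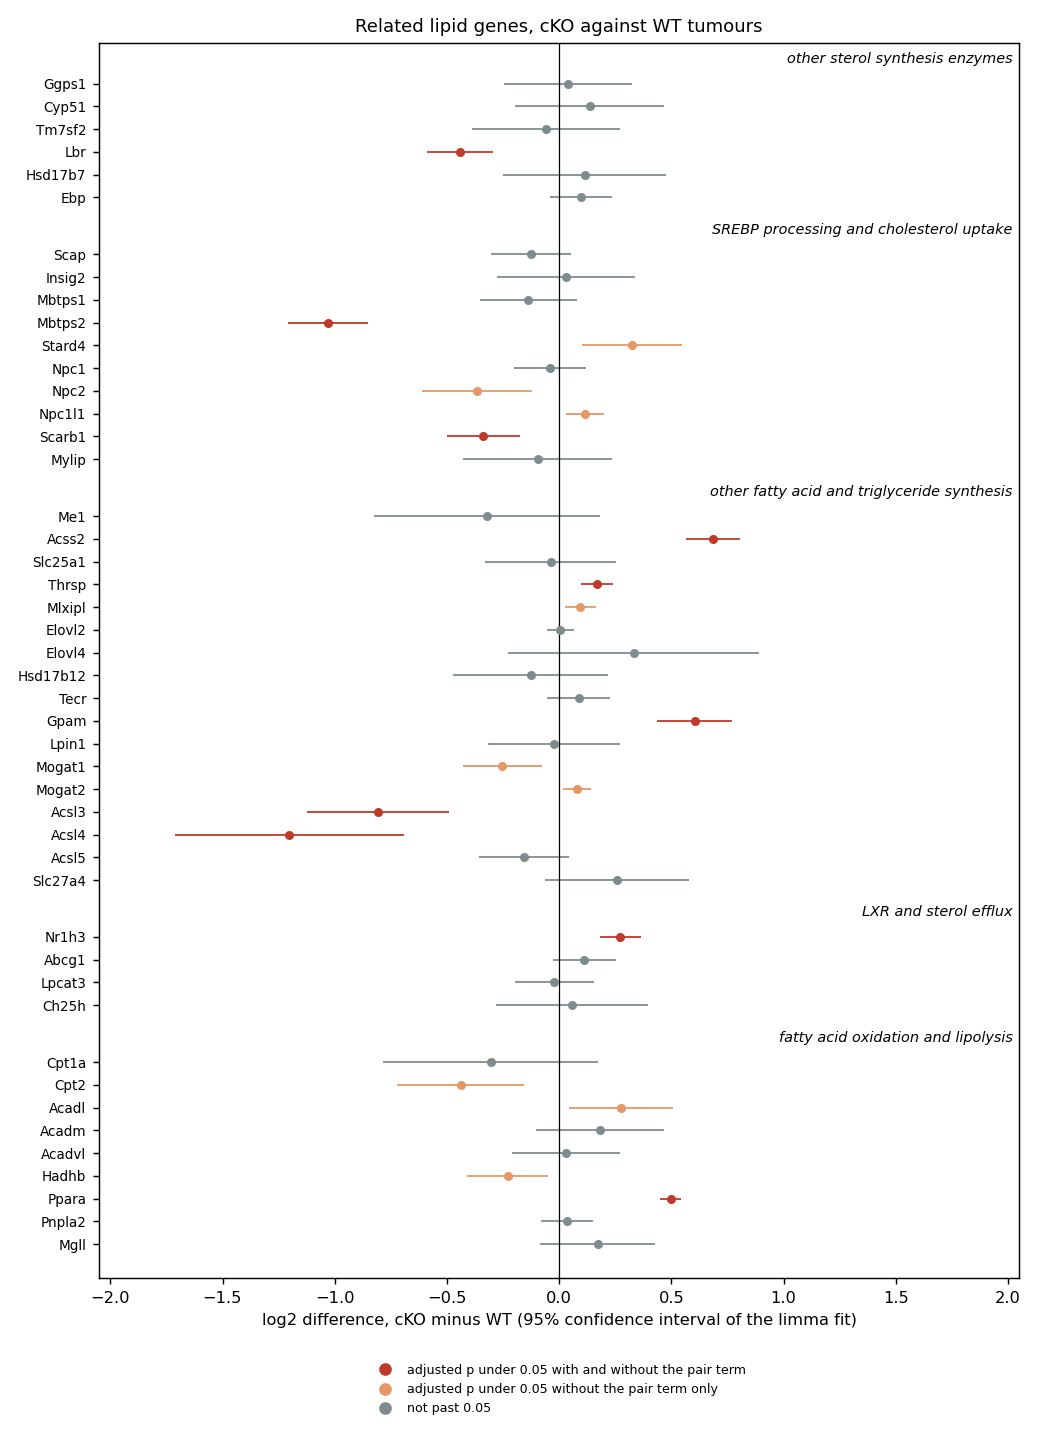
Log2 difference between cKO (n = 7) and WT (n = 6) tumours for 46 related lipid genes in 5 lists, with 95% confidence intervals of the limma fit; red genes pass with and without the pair term, orange only without it. Mbtps2, Acsl3 and Acsl4 lie farthest to the left and Acss2 and Gpam farthest to the right; for Mbtps2 and Ppara the dimmer group is below background, and the plotted difference is as measured.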

How the data were processed

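Each deposited array holds log2 values, 1 per probe set, which the submitters' processing notes say were made with RMA; its version, any adjustment after it and the genome build were not stated in the sources at hand. Per the labels' protocols, 25 ng of RNA was amplified in 17 cycles and 8 µg of cDNA was labelled.

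Of 45141 probe sets, 28898 have 1 gene symbol in the platform annotation and 551 several. The brightest probe set over all arrays stood for each of 17097 genes, with no filter. The cKO minus WT difference was tested with limma (version 3.58.1, R 4.3.3; lmFit and eBayes), and p-values from both tails were adjusted by the Benjamini-Hochberg method across the 17097 genes, with 0.05 as the threshold. The pair term followed neighbouring arrays, with cKO replicate 1 alone. Values for other probe sets were adjusted over all probe sets. Precision is limited by how many arrays there are. The fit was tested on simulated data with independent arrays. That test cannot show how the fit behaves with mirrored pairs, which these data have.

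The members and gene lists were chosen with earlier results of these data known. All measured members are named, and outside them Ehmt2 and at most 4 called genes per related list by smallest p. Some marker and sex-linked genes are named too. Scap, Mbtps1, Ggps1 and Abcg1 are added outside this rule, for the reasons given where they appear. Same-numbered WT and cKO arrays did not deviate together (r between -0.298 and 0.049). Plots were made in matplotlib (3.10.9).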

Additional observations from a re-analysis of the deposited data

Results flagged for a closer look

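Single tumours stood apart from their group for 4 of the 74 combinations of gene and group examined with Dixon's test. For independent values this test flags about 1 in 20 by chance. Paired arrays are not independent here, so the chance rate is not known. Hmgcs1 read 4.62 in WT replicate 9, where the next value was 4.54, and 5.40 in cKO replicate 9, where the next was 4.70. Idi1 read 8.32 in WT replicate 4, below the next value of 8.76. Dhcr7 read 9.41 in WT replicate 7, above the next value of 9.13.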

How the results depend on the processing

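Acacb kept its call under all 25 alternatives run, with differences of 0.29 to 0.38. Sqle kept it under 23 of 25 (-0.86 to -0.51), Hsd3b6 under 24 of 25 and Elovl3 under 21 of 23, and no call of a member turned direction. Against 3 members higher and 4 lower, the lower count was 2 after quantile normalization, 9 with median centring, 8 with the mean over probe sets, 11 with array weights, 1 with the pair term and 0 with the pair term after quantile normalization (limma, where 12 members had an unadjusted p under 0.05 in the fit without either). It ranged from 3 to 8 with single arrays left out. At an adjusted p under 0.01 it was 2, and at 1.5-fold or more the counts were 0 higher and 1 lower. Against 19 related genes called, 10 passed with genes below percentile 50 left out, 10 with the pair term, 9 with the pair term after quantile normalization, 10 at 0.01 and 5 at 1.5-fold, and 15 to 19 with single arrays left out. The replicate number as a block gave 1 higher and 5 lower members and 7 related genes, with an adjusted p of 0.0592 for Sqle; the samples share only a number. The chosen Ehmt2 probe set had 0.24 after quantile normalization (adjusted p = 0.0149), 0.075 to 0.17 with single arrays left out, passing without WT replicate 9 (adjusted p = 0.0498), and -1.10 as the mean of both probe sets, which the second probe set brings about. Members near background, such as Cidea, Mc5r and Elovl3, are limited by their low signal. The causes of the other shifts were not tested.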
